A study of Sus scrofa with 12 samples.

Results

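Of the 122406 chromatin loops listed in any H3K27ac BL-HiChIP library of pig longissimus muscle, 1133 (0.926%) were listed with the same 2 anchors in both Meishan (MS) libraries and had no loop in either Large White (LW) library with both anchors within 1 bin of 5 kb. They are called the member loops below, and made up 9.74% of the 11627 loops found in both MS libraries. LW is a commercial lean breed and MS a Chinese local breed, and the muscle came from 2 male piglets aged 2 weeks, by the study's methods, which do not say whether that number is per breed. Each breed gave 2 BL-HiChIP and 2 GRID-seq libraries. The sources used here name no allele, diet or agent that set the groups apart beyond the breed. They do not tie the libraries to piglets either, so the spread between libraries may be technical. Members were chosen by their presence in the lists, so their strength in MS and their lack of an LW match are descriptions without a test. A loop missing from an LW list is not shown to be absent, since the lists end at an FDR (false discovery rate) of 0.01.

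H3K27ac marks active promoters and enhancers, and BL-HiChIP ligates pieces of DNA that touch inside the nucleus and pulls down those that carry the mark. A loop between 2 marked anchors can place an enhancer beside a promoter, or 2 enhancers beside each other, often across other genes. GRID-seq records which RNAs lie on which DNA: most transcripts sit on chromatin at the gene that makes them, while a few spread over other chromosomes. In skeletal muscle such maps include, among many others, genes of the contractile apparatus and of energy use.

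The 2 LW lists held 57028 and 43282 loops, and the 2 MS lists 45061 and 33353. The GRID-seq lists held 8181721 and 9943666 RNA reads in LW and 7172517 and 9381797 in MS, on 519 to 681 RNAs per library. All 10 skeletal muscle markers checked had loops in every library, and 5 of the 10 (TTN, CKM, NEB, TNNT3 and MYBPC1) were listed as chromatin RNA in every library. Of 19 markers of fat, vessel, blood, immune, connective tissue and nerve cells, 1 or 2 were listed as RNA per library, with 3638 to 10436 summed reads against 859664 to 1290120 for the muscle markers, and 8 to 10 had loops. The 17 or more other markers were not listed as RNA in a library. Loops at those 19 markers summed to 28 and 24 in LW against 36 and 34 in MS. CD68, a macrophage marker, had the widest gap, at 5 and 4 against 9 and 11. Of the other immune markers, PTPRC had 0 in every library and CSF1R 0 and 0 against 2 and 0. Single markers went both ways: KDR had 4 and 1 against 5 and 5, and DCN 2 and 4 against 1 and 2. Loops at the 10 muscle markers summed to 59 and 61 against 54 and 44.

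Member loops were weaker than the MS loops that LW shared. The strength of a loop is given as −log10 of its FDR, where 2 is the limit of the lists. The median was 3.58 for MS replicate 1 and 3.45 for replicate 2, against 5.79 and 6.47 for the 10494 MS loops with an LW loop within 1 bin. Taking the smaller of the 2 MS values for each loop, members had a median of 2.79 (interquartile range 2.29 to 3.68) and 19 members (1.68%) reached 10, as 1889 of the matched loops (18.0%) did. The opposite set, 3159 loops of both LW libraries with no MS loop within 1 bin (20.8% of the 15174 loops of both LW libraries), had medians of 3.71 and 3.54.

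Many members lay close to the limit that defines them. The nearest LW loop was 2 bins away for 498 members (44.0%), with a median smaller strength of 2.85. The 1770 loops just on the other side of that limit, with an LW loop 1 bin away, had a median of 3.62. For 149 members no LW loop lay within 10 bins. Of the 19 members that reached 10, 15 had an LW loop 2 bins away.

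All 10 strongest members had an LW loop 2 bins away. The strongest joined 2 sites 75 kb apart inside TRAK1, an adaptor for the transport of mitochondria, at chr13:25775001-25780000 and chr13:25850001-25855000, with a strength of 18.95 and 30.8 in MS replicates 1 and 2. LW had a 65-kb loop there, with the same first anchor and strengths of 26.7 and 29.5. A 140-kb loop from ZNF648 to GLUL, which encodes glutamine synthetase, had 18.7 and 17.7 in MS, and the 130-kb LW loop beside it had 23.5 and 19.4. The 110-kb loop to RHOB, a small GTPase of the cytoskeleton and vesicle traffic, had 17.2 and 13.6, beside a 120-kb LW loop with 25.3 and 23.2. The 65-kb loop from PDLIM3, a Z-disc protein, to SORBS2 had 12.9 and 12.5, and the 75-kb LW loop with the same second anchor had 23.01 and 41.5. Of the others, 5 were a 20-kb loop at LOC106508361 (17.1 and 38.7), a 5-kb loop in JPH2 (20.2 and 16.2), which ties the cell membrane to the calcium store, a 40-kb loop in GBF1 (16.0 and 23.1), the 70-kb DCPS to ST3GAL4 loop (17.8 and 14.6) and the 20-kb ARHGEF17 to RELT loop (13.5 and 12.4). At these 9 loci the LW loop was thus offset by 10 kb at 1 or both anchors and reached 14.2 or more in at least 1 LW library, while at JPH2, GBF1 and ARHGEF17 it was listed in 1 LW library only.

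**Figure D1:**
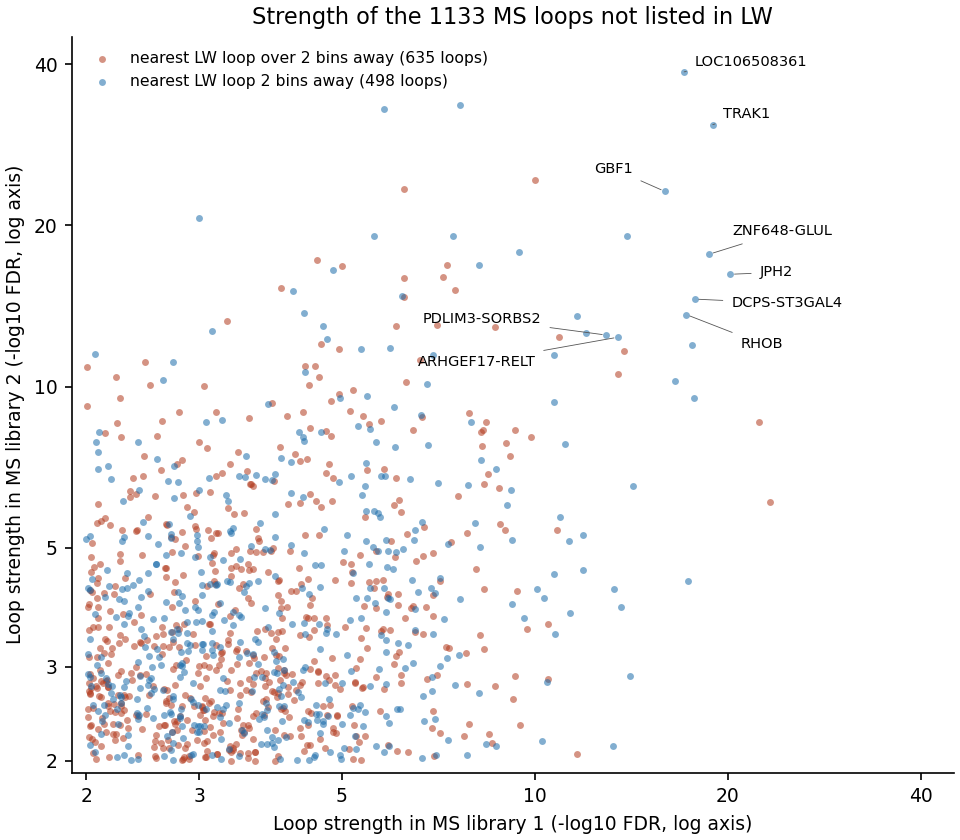
Strength of the 1133 member loops in MS library 1 (horizontal) and MS library 2 (vertical), as −log10 FDR on log axes. Each point is 1 loop, blue where the nearest LW loop was 2 bins away (498) and red where it was farther (635). The 9 loops named are among the 10 strongest by the smaller value, and all 10 are blue.

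Among the 635 members with no LW loop within 2 bins, which had a median smaller strength of 2.74, the strongest was a 10-kb loop in ZNF622 on chromosome 16 (13.8 and 11.7 in the 2 MS libraries). The next were a 5-kb loop at ALDOC and SPAG5 (10.9 and 12.4), a 5-kb loop on chromosome 18 away from genes (13.5 and 10.6) and a 500-kb loop on chromosome 11 from MYO16 to the long non-coding RNA gene LOC110255860 (10.0 and 24.3). The fifth was a 15-kb loop inside PPARGC1A, the coactivator of mitochondrial gene programmes (8.66 and 12.9). Neither ZNF622, the MYO16 loop nor the PPARGC1A loop had an LW loop within 10 bins. These loops were chosen after their values were seen.

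Distances between anchors were like those of the other sets. The median was 40 kb (interquartile range 10 to 105 kb, longest 1360 kb), against 40 kb for matched MS loops and 35 kb for the LW loops with no MS match. By class, 251 members (22.2%) joined neighbouring bins, 355 (31.3%) spanned 10 to 45 kb, 229 (20.2%) 50 to 95 kb, 277 (24.4%) 100 to 495 kb and 21 (1.85%) 500 kb or more. A loop of neighbouring bins has only 6 anchor pairs within 1 bin that could match it, where a longer loop has up to 9. The longest member joined PLPP3, a lipid phosphatase, to a site 1360 kb away (4.2 and 7.2 in the MS libraries), and the next spanned 1185 kb within PRKG1, the cGMP-dependent protein kinase (2.5 and 10.1).

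**Figure D2:**
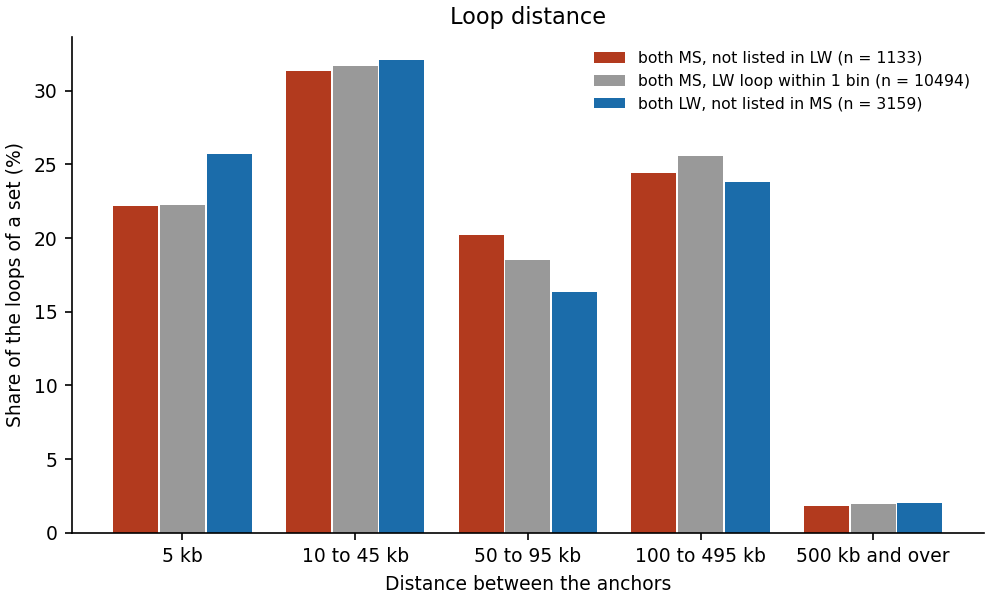
Share of loops (%) by distance between anchors for the 1133 member loops (red), the 10494 MS loops with an LW loop within 1 bin (grey) and the 3159 LW loops with no MS loop within 1 bin (blue). The 3 sets have similar shapes, with the largest share at 10 to 45 kb in each.

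Member loops were found on every chromosome. Chromosomes 13, 14, 6 and 1 held most, with 104, 87, 85 and 82 loops. As a share of the MS loops of a chromosome, members ranged from 7.64% on chromosome 1 to 12.6% on chromosome 17, with 12.3% on X, apart from Y, where 1 of 5 loops was a member. Of 1589 windows of 1 Mb with an MS loop, 707 held a member. The window at 7 to 8 Mb of chromosome 10 stood out, since 10 of its 12 MS loops were members. The window at 125 to 126 Mb of chromosome 13 held as many members, but among 81 MS loops.

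Most of the anchors had loops to other places in LW. Both anchors lay within 1 bin of an anchor of some LW loop for 890 members (78.6%), 1 anchor did for 174 (15.4%), and neither did for 69 (6.09%). Of those 69, 44 were 5-kb loops. Of the 2135 bins that served as member anchors, 879 (41.2%) were also anchors of matched MS loops.

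Grouping members whose anchors lay within 1 bin of each other gave 995 clusters, and 897 members (79.2%) stood alone. The other 236 formed 98 clusters, 20 of them with 3 or more loops. The largest cluster, of 11 loops, lay wholly inside ESRRG at chr10:6970001-7370000 (Sscrofa11.1). ESRRG encodes an orphan nuclear receptor that drives genes of oxidative metabolism. Over these 400 kb the LW libraries listed 8 and 4 loops and the MS libraries 29 and 26. Clusters were picked for loops that LW lacked. More MS loops in this and the other clusters, and at their anchors, thus follow in part from that choice. The 11 loops spanned 5 to 325 kb, and the strongest joined 2 neighbouring bins at chr10:7290001-7300000 (12.02 and 12.6). The bin at chr10:7295001-7300000 was an anchor of 7 loops in each MS library and of 0 in each LW library. The bin at chr10:7365001-7370000 had 8 and 7 loops in MS and 1 and 0 in LW. No RNA of ESRRG was listed in any GRID-seq library. RNA from other genes was listed on 1 and 2 of the 11 anchor bins in LW and on 4 and 9 in MS, at a signal of at most 26.4.

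**Figure D3:**
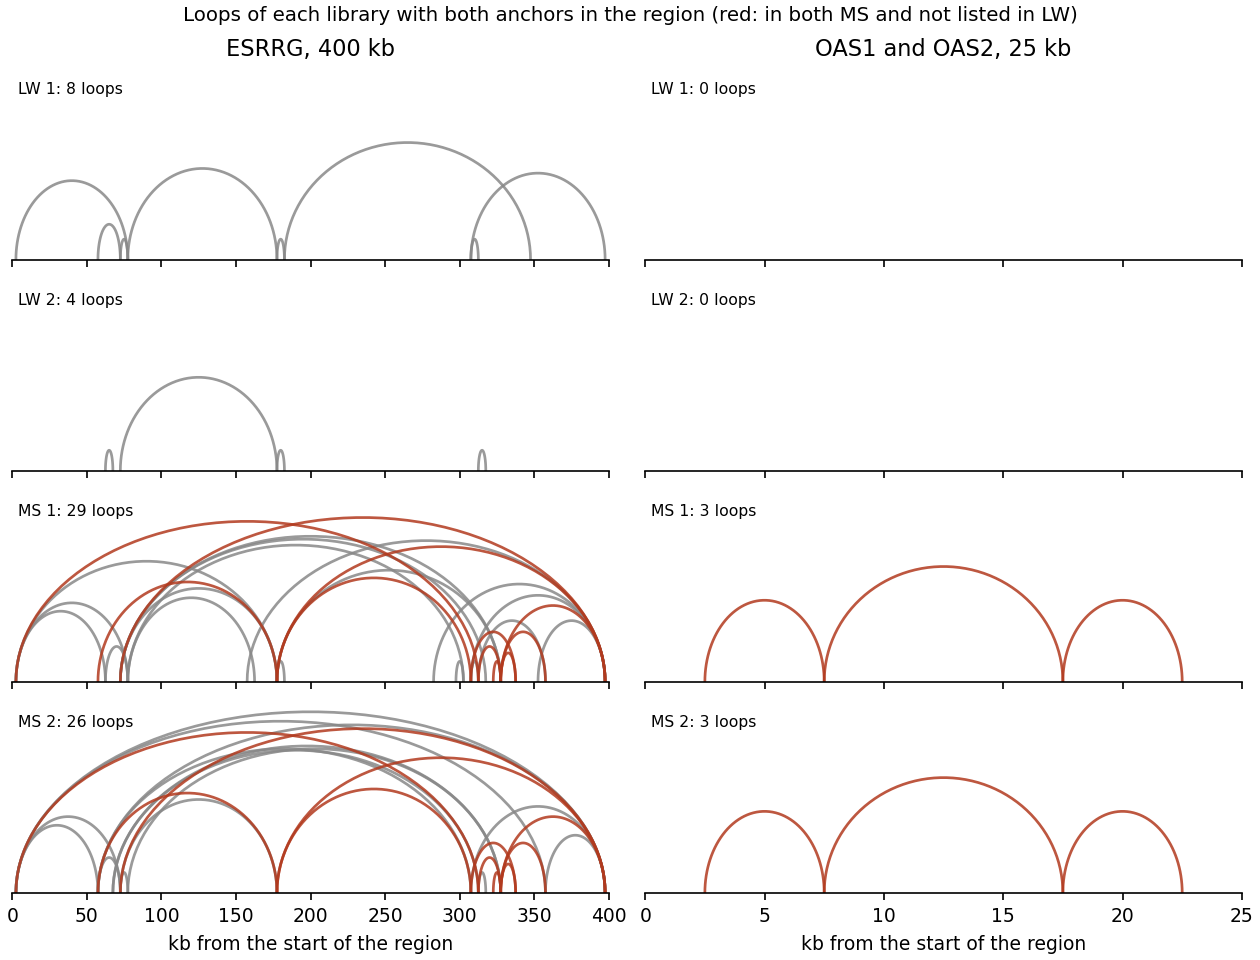
Loops with both anchors inside the 400-kb ESRRG cluster (left) and the 25-kb OAS1 and OAS2 cluster (right) in each BL-HiChIP library, as arcs over the distance in kb from the start of the region. Red arcs are member loops and grey arcs other loops. ESRRG has 8 and 4 loops in LW against 29 and 26 in MS, and OAS1 and OAS2 have 0 and 0 against 3 and 3. Both regions were chosen for their member loops, so more loops in MS follow in part from the choice.

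The cluster at the interferon-induced genes OAS1 and OAS2, whose products sense double-stranded RNA, had no LW loop at all. Whether the higher loop sums at markers of other cell types in MS play a part in this and other loops at immune and vessel genes was not tested. Its 3 loops at chr14:38840001-38865000 spanned 5 to 10 kb, with strengths of 4.3 and 4.1, 4.6 and 10.4, and 5.0 and 16.8 in the 2 MS libraries. RNA signal was listed on none of the 4 anchor bins in LW and on all 4 in both MS libraries, at 0.542 to 20.1 in MS replicate 1 and 6.93 to 65.9 in MS replicate 2. This RNA did not come from OAS1 or OAS2, which were not listed as chromatin RNA, but mainly from MYO18B, a muscle myosin gene on the same chromosome, and from ENSSSCG00000048037 and ENSSSCG00000048856. None of these 4 bins passed the adjusted test described below (lowest adjusted p = 0.0761, limma).

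A cluster on chromosome 10 tied the gene end of NRP1, a co-receptor for semaphorins and VEGF, to 4 sites 615 to 740 kb away in PARD3, a cell polarity gene. The NRP1 anchor took part in 13 and 15 LW loops and in 34 and 30 MS loops. The whole region, chr10:56425001-57170000, held 27 and 22 loops in LW against 58 and 34 in MS. A cluster of 5 loops at chr11:76225001-76835000, which holds MYO16 and the insulin receptor substrate gene IRS2, had 15 and 11 loops (LW) against 26 and 18 (MS). INSR, the insulin receptor itself, held 3 member loops at chr2:71830001-71920000 that shared the anchor at chr2:71915001-71920000, which took part in 2 and 0 LW loops against 7 and 8 MS loops. The strongest of the 3 had 7.5 and 15.1.

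The cluster at EPAS1 and PRKCE on chromosome 3 differed from those clusters in its RNA. EPAS1 encodes the hypoxia factor HIF-2α and PRKCE a protein kinase C. The 4 member loops lay at chr3:94200001-94460000, with 22 and 23 LW loops against 41 and 37 MS loops over the region. EPAS1 RNA was listed in both MS libraries, with 6435 and 7547 reads, and in neither LW library. The signal on the anchor inside EPAS1 was 0.314 and 2.52 (LW) against 4684 and 3853 (MS), a log2 difference of 11.06 ± 0.75 (SE, adjusted p = 0.0282). On the anchor at chr3:94455001-94460000 inside PRKCE it was 0 and 0 against 1193 and 1343 (adjusted p = 0.0280), and EPAS1 RNA led there too.

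The remaining clusters of 4 loops lay on chromosome 11 at KPNA3, on chromosome 13 in LPP, on chromosome 14 at LOC106505879 and on X at 9675001 to 10135000, where no anchor had RNA. A cluster of 6 on chromosome 7 at 10450001 to 10885000 held 13 and 8 LW loops against 27 and 18 MS loops. Clusters of 3 lay at TMOD1, which caps thin filaments, with TDRD7 and TSTD2, at CALM2, ST3GAL1, MTMR11, PTPRB with PTPRR, and CHST15. At GBP2, an interferon-induced GTPase, LW listed 1 and 0 loops and MS 6 and 3. At KLHL41, a protein of the sarcomere, the cluster reached FASTKD1 and PPIG. More loops in MS was not general: at CALM2 LW held 28 and 22 against 17 and 19.

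A gene end lay on an anchor, or within 1 kb of it, for 616 members (54.4%), against 57.8% of matched MS loops and 45.3% of LW loops with no MS match. Both anchors had one for 197 members (17.4%). In 511 members (45.1%) both anchors lay in the same gene. In all, 938 genes had an end at a member anchor, 747 of them protein-coding and 164 long non-coding, which is 15.6% of the 6025 genes with an end at any loop of both MS libraries. One member loop was the rule, for 860 genes. NRP1, LOC106505879 and LOC110255860 had 4, and LOC100155195 and MTMR11 had 3. Most of these genes (90.9%) also had LW loops, while 85 had none in either LW library, 61 of them protein-coding. The genes were picked through loops that LW lacked, so a lack of LW loops follows in part from that choice. The share without LW loops among all 6025 genes was not counted, so the 85 have no base to be set against. Among those 61, CCDC125, EXOC3L2, LONRF1, NOTCH4 and OAS2 had 2 member loops each. LONRF1 had 3 and 2 loops in the MS libraries and NOTCH4, a Notch receptor of vessels, 3 and 3. VHL, the ubiquitin ligase subunit that marks hypoxia factors for breakdown, had 1 member loop of 10 kb (5.3 and 3.1), and NOD1, a sensor of bacterial wall fragments, 1 of 25 kb (6.0 and 5.1).

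Of the 12 gene lists, 10 had at least 1 gene with a member loop. Of 59 sarcomere and Z-disc genes, 6 (10.2%) had a member loop, beside 938 of 28210 genes (3.33%) in the whole annotation. Only a gene with a loop of both MS libraries can have one. On that base the share was 12% of 50 sarcomere and Z-disc genes, beside 15.6% of all 6025 genes, so these genes were not enriched. The 6 were MYOZ3, TNNC1, TNNT1, LMOD2, PDLIM3 and XIRP1. None of 29 calcium handling genes and none of 33 myogenic factor genes had one by this gene-end rule, although 17 and 16 of them had MS loops. Of 30 growth signalling genes only TGFB1 did. LW loops with no MS match, a larger set, lay at 1935 of the 28210 genes, and at 10 sarcomere, 7 calcium handling, 5 myogenic factor and 13 growth signalling genes. Of 34 glycolysis and glycogen genes, GAPDH and PHKG1 did, of 27 lipid and adipocyte genes SCD and KLF15, and of 18 oxidative regulators PPARD and TFAM. DBP was the 1 of 18 clock genes, PRRX1 of 23 matrix and fibroblast genes, LRP4 of 17 neuromuscular genes and KDR of 24 endothelial, blood and immune genes. Of 12 muscle trait genes named in the study text, PRRX1 and LMOD2 had one, and that list was drawn up from these samples in part. The members of a list come with their neighbours: the loop at TNNC1 also touched NISCH, TLR9 and TWF2.

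The XIRP1 loop, 40 kb long and joining this actin-binding protein of muscle to TTC21A, was the strongest among these apart from that of PDLIM3 (9.3 and 8.3). The TGFB1 loop spanned 15 kb inside the gene (6.2 and 5.8), and its first anchor had 0 loops in each LW library. At PRRX1, a mesenchymal transcription factor, a 60-kb loop had 2.4 and 6.3, and the gene's anchor held 8 and 12 LW loops and 9 and 11 MS loops. The loop of TNNT1, slow troponin T, joined neighbouring bins inside the gene (2.5 and 2.8), and neither bin had a loop in LW. MYOZ3, which links Z-disc proteins to calcineurin, had its loop end 150 kb away from the gene (6.03 and 6.0), with no LW loop within 10 bins, and TNNC1, the slow and cardiac troponin C gene, one of 225 kb (2.4 and 3.6).

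Among the metabolic genes, the loop of PPARD, a nuclear receptor of fatty acid oxidation, was the strongest, at 105 kb to RPL10A (8.8 and 5.5). TFAM, which packages mitochondrial DNA and activates its transcription, had a loop of 125 kb (4.6 and 2.2). KLF15, a regulator of amino acid and lipid use, had one of 195 kb (3.7 and 4.9), and SCD, the fatty acid desaturase, one of 60 kb just above the limit (2.05 and 2.07). That of GAPDH to TNFRSF1A spanned 190 kb (2.6 and 2.02). DBP, a clock-controlled factor, had 1 of 70 kb (5.5 and 8.3), and KDR, the VEGF receptor of vessels, 1 of 5 kb (4.3 and 6.1). Of these 7 loops, those of PPARD and DBP had 5 or more in both MS libraries, and that of DBP had an LW loop 2 bins away.

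RNA signal on the first TNNT1 bin was 20931 and 21641 in LW against 12393 and 10516 in MS, which did not pass the test (adjusted p = 0.603, limma).

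RNA was listed on more member anchors in MS than in LW, but so it was on loop anchors in general. Of the 2135 member anchors, 868 (40.7%) and 1116 (52.3%) had RNA signal in LW, and 1274 (59.7%) and 1375 (64.4%) had it in MS. Over all 71411 anchors the shares were 40.7% and 52.8% (LW) against 54.2% and 62.9% (MS). Fewer cells of a type and less RNA per cell cannot be told apart in such whole-tissue libraries. The gap lay in RNAs made on other chromosomes, which were listed on 22.4% and 31.1% of member anchors in LW against 51.3% and 53.5% in MS (22.4%, 30.9%, 45.8% and 51.3% over all anchors). They carried at most 0.977% of the signal, whereas RNAs made within 10 kb of the anchor held 83.6% to 87.9% of it on 6.0% to 8.7% of the anchors. TTN RNA, of the giant sarcomere protein titin, lay on 159 and 202 member anchors in LW against 365 and 314 in MS, or 7.45%, 9.46%, 17.1% and 14.7% of them, beside 8.14%, 9.20%, 15.5% and 12.7% of all anchors. Both anchors shared an RNA of the same chromosome in 18.4% and 25.6% of member loops in LW, and 17.4% and 23.6% in MS. This was less than for matched loops (25.9%, 35.3%, 23.4% and 31.9%). It was near the shares of LW loops with no MS match (20.2%, 28.9%, 16.2% and 22.5%).

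**Figure D4:**
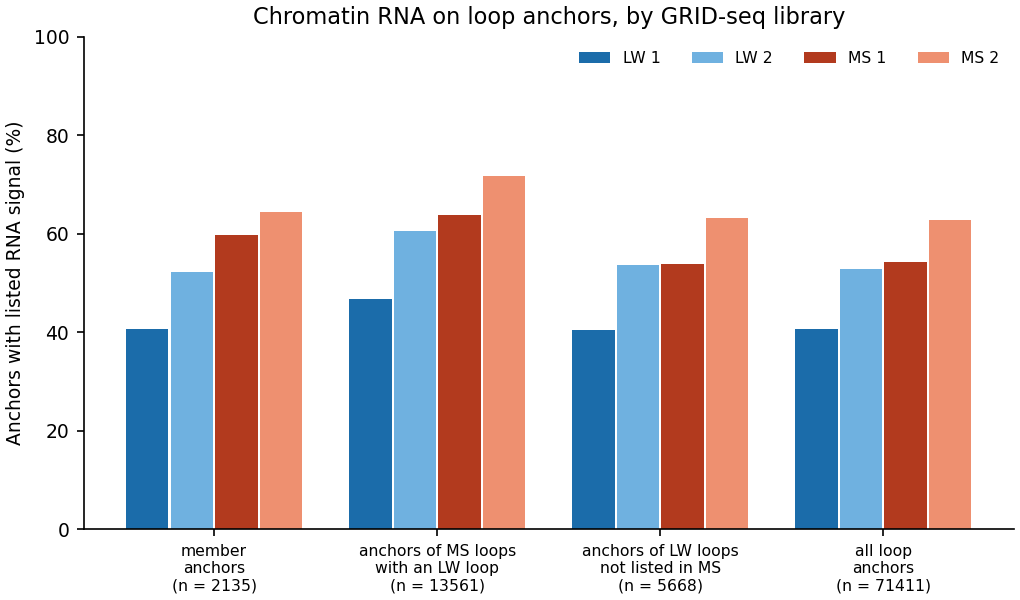
Share of loop anchors (%) with listed RNA signal in each GRID-seq library (LW in blue, MS in red) for the 2135 member anchors, the anchors of matched MS loops, those of LW loops with no MS match, and all 71411 loop anchors. In each set the bars rise in the same order, and MS 2 is highest, at 64.4% of member anchors.

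Signal per anchor was compared between breeds with limma on log2(signal + 1) over the 45732 anchors with signal in at least 2 libraries. Of the member anchors, 1398 could be tested and 319 had no signal in any library. At an adjusted p under 0.05, 39 member anchors (2.79%) were higher in MS and 23 (1.65%) in LW, where 2.12% and 2.03% of all tested anchors were. By the study's threshold, a log2 difference above 2 with an unadjusted p under 0.05, 215 were higher in MS (15.4%; 12.7% of all tested anchors) and 92 in LW (6.58%; 8.00% of all). The median log2 difference was 0.47 on member anchors, 0.40 on anchors of matched loops and 0.23 on all tested anchors. Signal was listed in both MS and in no LW library on 206 member anchors (9.65%; 8.91% of all anchors) and the other way round on 44 (2.06%; 2.86% of all). Member anchors therefore stood near the background in each count. The adjusted calls were lost, 0 in each direction, with quantile normalization, with a replicate block and when any 1 library was left out. By the study's threshold, the excess in MS turned to 31 in MS against 38 in LW with signal required in all 4 libraries. These were 6.16% and 7.55% of member anchors, beside 5.53% and 7.94% of all anchors tested so. The median log2 difference was 0.29 without MS replicate 2 (0.08 on all anchors tested so). With RNAs of the same chromosome only it was −0.07 (−0.25 on all anchors tested so). An exact permutation test of a single anchor cannot go below p = 0.33 with 2 against 2.

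A signal of 0 on an anchor often meant that the RNA was not listed at all in that breed. Of the 39 member anchors higher in MS, 32 had a leading RNA listed in both MS and no LW library, and of the 23 higher in LW, 13 had one listed in both LW and no MS library.

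Of the 5 anchors with the smallest p among those higher in MS, 4 carried RNA of the locus they lie in. On the RHOB anchor at chr3:117775001-117780000 the signal was listed at 0 in both LW libraries and was 24941 and 32906 in MS (limma, adjusted p = 0.0280, as for the next 4). Inside ZHX2, a transcription factor gene, the values were 0 and 0 against 2021 and 2034. Inside CYSTM1, from ENSSSCG00000014361, they were 0 and 0 against 5931 and 4334. At chr2:61275001-61280000, outside any gene, RNA of KLF2, a transcription factor of vessels and immune cells, gave 0 and 0 against 19259 and 11246. In MLXIP, a glucose-responsive transcription factor also called MondoA, the signal was 0.337 and 0 against 3146 and 3045, a log2 difference of 11.44 ± 0.55. These 5 were picked for their small p, so the gap between the breeds on them follows from the choice.

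Member loops also had anchors where RNA was higher in LW. On both anchors of a 10-kb loop inside PSTPIP1, a cytoskeletal adaptor of blood cells, transcripts without a gene name (Tx in the plot of anchor signal) led, with 2461 and 4717 on one and 3080 and 3195 on the other in LW and 0 in both MS libraries. At ATOX1 the signal came from SPARC, a matrix protein gene nearby, with 699 and 1097 against 0 and 0. Both anchors of a 10-kb loop inside ZBTB20 had ZBTB20 RNA in LW, 483 and 443 on one and 435 and 408 on the other, and none in MS. All 5 of these anchors had an adjusted p of 0.0280.

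In all, 53 member loops had an anchor past the adjusted test, 34 with one higher in MS and 20 with one higher in LW. Loops outside the members were not counted in this way. By anchor, 2.79% of tested member anchors were higher in MS and 1.65% in LW, near the 2.12% and 2.03% of all tested anchors. Both anchors were higher in MS for 9 loops and in LW for 4. Both kinds of anchor met in 1 loop, which joined the small heat shock protein gene HSPB1 at chr3:10040001-10045000 to the mitochondrial malate dehydrogenase gene MDH2 at chr3:10130001-10135000, with 2.1 and 3.2 in the MS libraries. The signal on the HSPB1 anchor was 184 and 103 (LW) against 16896 and 14009 (MS) (log2 difference 6.91 ± 0.69, adjusted p = 0.0437). That on the MDH2 anchor was 17056 and 11135 against 0 and 4.17 (log2 difference −12.54 ± 1.10, adjusted p = 0.0356).

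At the 2 PPARGC1 coactivator genes the signal differed in opposite directions. The 3 member anchors in PPARGC1A on chromosome 8, joined by the loops of 15 and 140 kb, were listed at 0 in LW and had 299 and 330, 280 and 303, and 339 and 325 in the MS libraries (adjusted p = 0.0280 each). The anchor in PPARGC1B that also holds MIR378-1 had 3262 and 2833 against 16.95 and 25.2 (log2 difference −7.02 ± 0.55, adjusted p = 0.0305). At the sarcomere genes, the TNNC1 anchor had 40.7 and 13.6 against 9251 and 14573 (8.99 ± 0.86, adjusted p = 0.0407), and the KLHL41 anchor 0.251 and 7.36 against 5266 and 4841 (10.74 ± 1.15, adjusted p = 0.0489). The XIRP1 anchor had 0 and 68.8 against 22331 and 16679 but did not pass (adjusted p = 0.120). On the anchor of HOXA3, HOXA6 and HOXA7, joined to HOXA9, RNA of HOXA5 gave 5562 and 2985 against 6.42 and 7.76 (−8.87 ± 0.68, adjusted p = 0.0299). The HSPB1, PPARGC1A, PPARGC1B and HOXA loci were named after their values were seen.

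**Figure D5:**
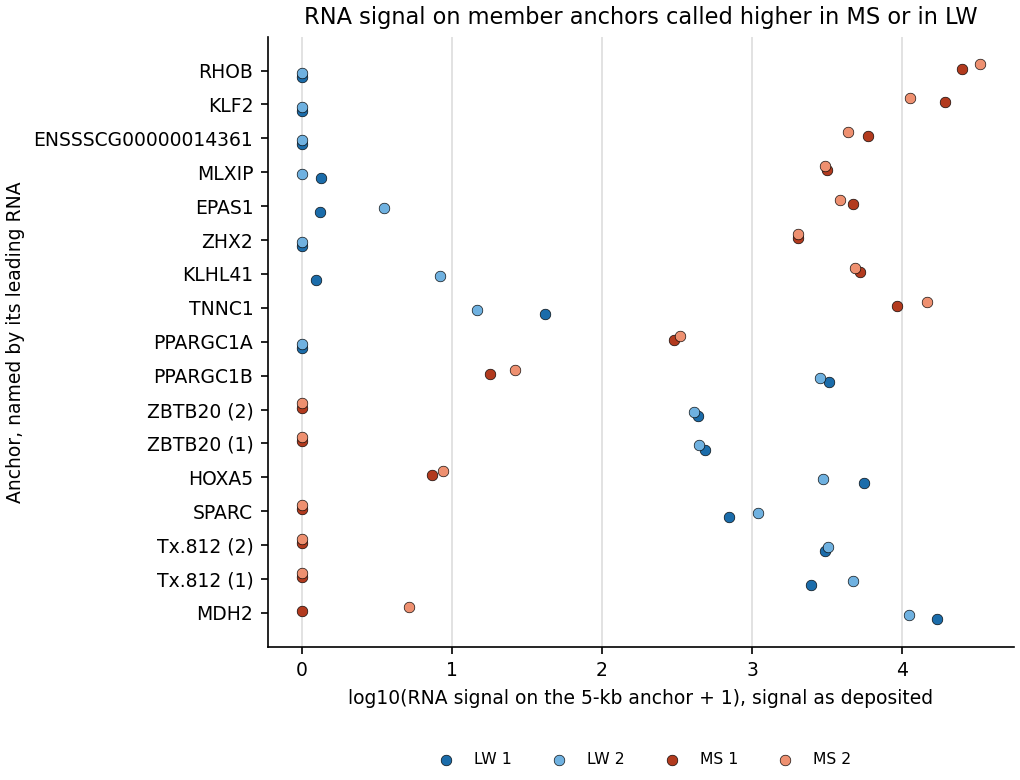
RNA signal on member anchors past the adjusted test, as log10(signal + 1) of the deposited values, in each GRID-seq library (LW in blue, MS in red). The 5 anchors of smallest p in each direction are shown with 7 others chosen after their values were seen, each named by its leading RNA. The anchors were picked from those that passed the test, so the LW and MS points stand apart on each. RHOB is highest in MS and MDH2 highest in LW.

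RNAs listed in 1 breed only were also found at member anchors. Of 1122 RNAs listed in any library, 156 overlapped a member anchor. Of these, 16 were listed in both MS and no LW library (10.3%; 7.58% of all RNAs) and 14 in both LW and no MS library (8.97%; 6.15% of all). Without unnamed transcripts, a restriction chosen after the values were seen, the MS share was 11.5% for RNAs at member anchors and 11.5% for all. The 16 were ACADVL, ATF3, CCDC9, ENSSSCG00000014361, ENSSSCG00000050502, EPAS1, ETS2, KLHL41, LMCD1, MLXIP, PDE7B, RHOB, SSBP3, TNNC1, XIRP1 and ZHX2. PDE7B, a phosphodiesterase, had the most reads of the 16 (37231 and 43755) and RHOB the fewest (478 and 560). TNNC1 had 650 and 792 reads and ATF3, a stress-induced factor, 3516 and 4078. The 14 of LW were ARHGAP10, COL4A2, DGKZ, EFCAB7, ENSSSCG00000035293, ENSSSCG00000047798, HOXA5, MDH2, PPARGC1B, SESN1, SGCD, UBALD1, UBE2H and ZBTB20, with ZBTB20 highest at 64346 and 70545 reads. The smallest number of reads listed was 432 to 455 per library, so an RNA below that is not shown to be missing.

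Reads of the 308 RNAs listed in all 4 libraries were compared with edgeR's quasi-likelihood test. Of the 57 at member anchors, 24 rose in MS and 24 fell (42.1% each), beside 42.5% and 44.2% of all 308, and their median log2 difference was −0.02. The libraries of a breed differed so little that small differences passed. GLUL rose most among the 5 named in MS, with 2323 and 2522 reads against 6619 and 7937 in MS (log2 difference 1.75 ± 0.02, adjusted p = 2.2e-06). The others were GAPDH (0.87 ± 0.02), PIK3R1 (0.67 ± 0.01), ENSSSCG00000044834 (0.85 ± 0.02) and MSI2 (0.33 ± 0.01). Those lower in MS were ZBTB16 (−0.52 ± 0.01), ENSSSCG00000015747 (−0.57 ± 0.01), ENSSSCG00000029441 (−0.45 ± 0.01), C1orf21 (−0.42 ± 0.01) and the amino acid transporter gene SLC38A4 (−0.82 ± 0.01). Reads and local signal did not always move together. GAPDH had 7687 and 8496 LW reads and 11945 and 14457 MS reads, but its signal on its own member anchor was 29054 and 21779 (LW) against 13516 and 9336 (MS). SLC38A4 had more reads in LW, 29166 and 32623 against 14451 and 16793, and a signal of 3571 and 3665 in LW against 4666 and 4778 in MS.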

How the data were processed

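Loop and RNA lists of 8 libraries were used. The authors trimmed linkers with ChIA-PET2, mapped with BWA-MEM to Sscrofa11.1 and called loops per library with FitHiChIP. The p-value the authors deposited per loop was read as its FDR, because the lists end at 0.01. For GRID-seq, mapped with Bowtie2 2.2.5 by the submitters' processing notes, the RNA read count and the background-corrected signal per RNA and 1-kb bin were used as deposited. The lists carry no column names, so both are read from the values. Within a library an RNA's highest signal fell with its reads (Spearman's rho −0.68 to −0.80 across RNAs, which are not independent), so signal is not an RNA level. Contact counts were not used here.

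Signal was summed per 5-kb anchor, scaled by median ratios and fitted with limma 3.58.1 on log2(signal + 1), which understates low changes. Reads were tested with edgeR 4.0.16 (TMM), and DESeq2 1.42.0 was an alternative, in R 4.3.3. P-values were Benjamini-Hochberg adjusted over all features. Both tests were run on simulated data, where limma's adjusted test recovered changed anchors only where changes were large and many. Gene ends came from RefSeq (Sscrofa11.1), without strand. Members and gene lists were chosen with earlier results of these data known. Named were the 10 largest clusters with ties, the 10 strongest loops, the genes with most loops, list genes with a member loop, and the 5 anchors and 5 RNAs of smallest p per direction. Python 3.11.15 with pandas 2.3.3, numpy 2.4.6 and matplotlib 3.10.9 did the rest. Results of 1 gene locus and 1 RNA are not reported here.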

Additional observations from a re-analysis of the deposited data

How the results depend on the processing

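The number of member loops was 2903 with exact anchors only, 635 when an LW loop within 2 bins counted as a match, 2050 when the second MS loop could lie within 1 bin, 467 at an FDR of at most 0.001 in both MS libraries, and 2404 to 12945 when 1 library was left out (2531 without LW replicate 1, 2404 without LW replicate 2, 6367 without MS replicate 1 and 12945 without MS replicate 2). Of the 10 strongest loops, 0 remained at 2 bins, while 9 of the 11 ESRRG loops did. The median distance was 40 to 70 kb with 1 library left out, and 70 kb only without MS replicate 2.

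Adjusted calls on member anchors, higher in MS and in LW, were 0 and 0 with quantile normalization. They were 112 and 38 with a pseudocount of 0.1 (8.01% and 2.72%, beside 6.70% and 3.18% of all tested anchors). With signal required in all 4 libraries they were 12 and 9 (2.39% and 1.79%, beside 1.34% and 1.92%). RNAs of the same chromosome only gave 76 and 65 (10.5% and 8.97%, beside 7.82% and 11.7%). By the study's threshold they were 31 and 38 with signal in all 4 libraries and 100 and 86 with RNAs of the same chromosome only, and 69 to 190 in MS and 69 to 111 in LW with 1 library left out (130 and 93 without LW replicate 1, 190 and 69 without LW replicate 2, 81 and 70 without MS replicate 1, 69 and 111 without MS replicate 2). When RNAs listed in both libraries of 1 breed were tested, 41 of the 100 at member anchors had more reads in MS and 35 had more in LW. Over all 561 RNAs so tested the shares were 39.2% and 32.4%. The cause of these shifts was not tested. By the study's threshold, and with every library kept, the balance of the 2 directions turned from MS to LW with signal required in all 4 libraries. In that setting it turned on member anchors and on all tested anchors alike. With RNAs of the same chromosome only it turned on all tested anchors (2318 in MS against 3511 in LW) but not on member anchors (100 against 86). No named anchor or RNA changed the sign of its log2 difference. DESeq2 gave 24 and 24 calls for the reads, as edgeR did (42.1% each, beside 42.5% and 43.5% of all 308 RNAs with DESeq2).

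With the replicate number as a block, 0 anchors passed the adjusted test in either direction. The reads then gave 25 and 25 calls at member anchors (43.9% each, beside 44.8% and 45.1% of all 308 RNAs). The numbers share no stated origin. With 2 libraries per breed the deviations from the breed means gave the same r, 0.0288, for both pairs. That value cannot tell whether same-numbered libraries were handled together. An RNA under 432 reads, or a loop past an FDR of 0.01, is outside the lists and cannot be compared here.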

Other observations

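Further member loops carried an RNA difference past the adjusted test (limma), and were picked here after their values were seen. Both anchors of a 5-kb loop inside ELOVL6, a fatty acid elongase gene, had RNA of the neighbouring gene EGF in LW only, with 226 and 279 on the first and 303 and 243 on the second, and were listed at 0 in MS (adjusted p = 0.0280 and 0.0284). On the anchor of JAK1, a kinase of cytokine receptors, the RNA was mainly ENSSSCG00000047798, with 15728 and 14143 in LW against 6.93 and 18.6 in MS. Both anchors of the 10-kb ATF3 loop were higher in MS: the first had 35.6 and 24.2 against 7401 and 7365, and the second 9.63 and 42.8 against 14655 and 12107. At UBE2H, a ubiquitin-conjugating enzyme gene, the anchor at the gene end had 2223 and 1634 in LW against 7.69 and 4.70 in MS.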
